A study of Arabidopsis thaliana with 16 samples.

Results

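Glutathione, thioredoxin and nitrosothiol redox genes were examined in leaves of 4-week-old Arabidopsis thaliana, and 2 of 10 listed loci could be measured. The loci had been chosen by gene: GSNOR1 (AT5G43940), GR1 (AT3G24170), GSH1, GSH2, GRX480 (AT1G28480), TRX-h3, TRX-h5, NTRA, RBOHD and RBOHF. A locus counted as measured where the probe annotation gave it a probe set of its own on the Affymetrix ATH1 array, as it did for 13286 loci in all. GRX480 and GR1 had 1 probe set each, both bright enough for the tests. The other 8 loci were not analysed here. GSNOR1 is one of them, and whether its signal follows the genotype labels was not examined.

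The 16 arrays formed 8 groups of 2. The mutants atgsnor1-1, atgsnor1-3 and sid2 and the wild type Col-0 were each sampled 6 h after avrB and untreated, all grown at 20 °C and 65% relative humidity in days of 18 h of light and nights of 6 h. AvrB is an effector protein of Pseudomonas syringae, and Col-0 plants recognise it through a resistance protein. The atgsnor1-3 line is known to have lost S-nitrosoglutathione reductase activity, the atgsnor1-1 line is known for raised activity, and sid2 lacks the isochorismate synthase behind most salicylic acid made during infection. Each mutation is represented by 1 line. The labels name no mock inoculation, no bacterial strain without avrB and no time for untreated leaves. An effect of the inoculation procedure, of any bacteria that carried avrB or of the hour of harvest thus cannot be told apart from one of avrB. In leaf RNA, a change in the share of a cell type and a change of RNA per cell cannot be told apart either.

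Glutathione is the main small thiol of plant cells. Glutathione reductase uses NADPH to return its oxidised form to the reduced one, and glutaredoxins draw on the reduced form to break disulphide bonds in proteins. Nitric oxide turns glutathione into S-nitrosoglutathione, which S-nitrosoglutathione reductase removes. In Arabidopsis defence, thiol changes are known to act on the co-activator NPR1, which works with TGA transcription factors downstream of salicylic acid. GR1 is the glutathione reductase of cytosol and peroxisomes. GRX480, also called ROXY19, is a plant-specific glutaredoxin that binds TGA factors and is known to be induced by salicylic acid.

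Values are linear MAS5 signals, scaled by the submitters so that every array has the same trimmed mean of 100.01 units. Array medians were 33.1 to 40.9 units, and probe sets with a mean under 20.2 units over all arrays were not tested. Correlations between the 2 arrays of a group, across probe sets, lay between 0.884 and 0.934. Some arrays stood closer to another genotype than to their own group under the same treatment: both of untreated Col-0 to untreated atgsnor1-1, the first of untreated atgsnor1-3 to sid2, the first of Col-0 after avrB to sid2, and the second of atgsnor1-1 after avrB to Col-0. Of 12 leaf photosynthesis markers 6 had a probe set, and their lowest signal on any array was 845 units. The root hair marker EXPA7 ran from 3.0 to 44.2 units over the arrays, and FMA (FAMA), a guard cell marker, from 29.2 to 71.9 units, each the 1 measured gene of a list of 3. Whether the arrays of a group stand for separate plants is not stated, so p-values measure the spread between these arrays only, which may be technical.

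A gene is called below where limma's adjusted p was under 0.05 and the log2 difference at least 1 in size. Signals are means ± SD with n = 2, and log2 differences are given ± SE from the fit over all 16 arrays. "Rose", "fell", "higher" and "lower" are used of called differences.

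The first question was whether GRX480 changed after avrB. The gene rose in all 4 genotypes, on top of resting levels that differed widely. In atgsnor1-3 the arrays read 322 and 291 units after avrB, against 6.50 and 5.99 units untreated. In sid2 they read 267 and 294 units after avrB, against 27.8 and 25.3 units untreated. The atgsnor1-1 arrays read 688 and 702 units after avrB, against 45.2 and 59.0 units untreated. In every one of these mutants both treated arrays stood far above both untreated ones. Col-0 arrays read 504 and 542 units after avrB, against 163 and 66.8 units untreated. The treated and untreated Col-0 arrays did not overlap, but the 2 untreated ones lay further apart than those of any other group on the log scale.

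The rise of GRX480 was a log2 difference of 5.62 ± 0.29 in atgsnor1-3 (limma adjusted p = 3.27e-10), 3.75 ± 0.29 in atgsnor1-1 (limma adjusted p = 1.58e-07), 3.40 ± 0.29 in sid2 (limma adjusted p = 1.71e-07) and 2.32 ± 0.29 in Col-0 (limma adjusted p = 3.02e-05). As folds, these were 49.1 with a 95% interval of 32.1 to 75.1 in atgsnor1-3, 13.5 (8.80 to 20.6) in atgsnor1-1, 10.6 (6.90 to 16.2) in sid2 and 5.01 (3.27 to 7.66) in Col-0. The resting signal of atgsnor1-3 lay below the filter level, so its fold gives a direction more firmly than a size. With a pseudocount of 9.48 units the log2 difference was 4.33 in atgsnor1-3. The response of Col-0 depended on its untreated arrays: it was 2.97 without array 1 and 1.68 without array 2.

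**Figure D1:**
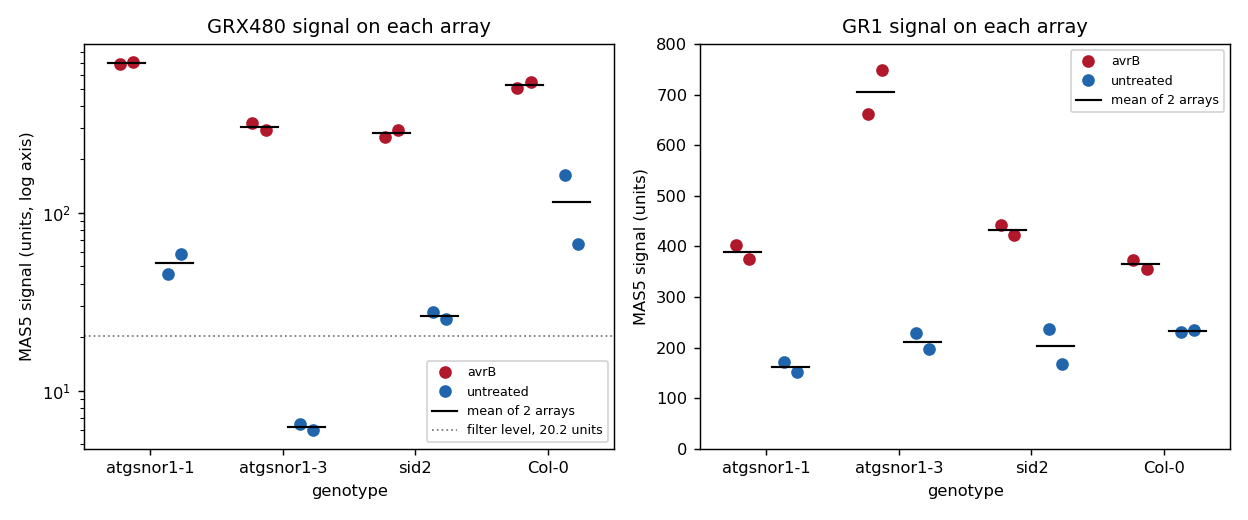
MAS5 signal of GRX480 (left, log axis) and GR1 (right, linear axis) on each of the 16 arrays, by genotype, with avrB in red and untreated in blue; points are arrays, bars are means of 2 arrays, and the dotted line marks 20.2 units. GRX480 in untreated atgsnor1-3 averaged 6.24 units, the lowest of the 8 groups, and GR1 in atgsnor1-3 after avrB averaged 705 units, the highest.

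The second question was how the mutants differed from Col-0 in GRX480 before treatment. Untreated leaves averaged 6.24 ± 0.36 units in atgsnor1-3, 26.5 ± 1.77 in sid2, 52.1 ± 9.76 in atgsnor1-1 and 115 ± 68.0 in Col-0. The arrays of these 4 groups did not overlap. GRX480 was lower than in Col-0 by a log2 difference of -4.07 ± 0.29 in atgsnor1-3 (limma adjusted p = 5.16e-08) and of -1.98 ± 0.29 in sid2 (limma adjusted p = 0.000227). In atgsnor1-1 the difference was -1.02 ± 0.29, with limma adjusted p = 0.242 and a 95% interval from -1.63 to -0.40, and it was not called.

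These comparisons use the same 2 Col-0 arrays, and array 1 of untreated Col-0 held more than array 2. Without array 2, atgsnor1-3 stood at -4.71, sid2 at -2.62 and atgsnor1-1 at -1.66, the last then called (limma adjusted p = 0.00478). Without array 1, the differences were -3.42 in atgsnor1-3, -1.33 in sid2 and -0.37 in atgsnor1-1. With the pseudocount, atgsnor1-3 stood at -2.87. The calls of atgsnor1-3 and sid2 held in all of these.

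Among the mutants themselves, untreated atgsnor1-3 had less GRX480 than untreated atgsnor1-1, at -3.05 ± 0.29 (limma adjusted p = 2.27e-06), and -1.96 with the pseudocount. It also had less than untreated sid2, at -2.09 ± 0.29 (limma adjusted p = 0.00063), and -1.20 with the pseudocount. The call against sid2 was lost when only the 4 arrays concerned entered the fit (limma adjusted p = 0.207).

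The third question was how GRX480 compared after avrB. Group means were then 306 ± 21.9 units in atgsnor1-3, 280 ± 18.5 in sid2, 695 ± 10.2 in atgsnor1-1 and 523 ± 26.4 in Col-0, and the highest was 2.48 times the lowest. Ordered by level over all 8 groups, the arrays of sid2 and atgsnor1-3 after avrB overlapped, and no other neighbouring groups did. The difference between atgsnor1-3 and sid2 was 0.13 ± 0.29, with a 95% interval from -0.49 to 0.74. GRX480 was lower in atgsnor1-3 than in atgsnor1-1, at -1.18 ± 0.29 (limma adjusted p = 0.00627). Against Col-0, the differences of -0.77 ± 0.29 in atgsnor1-3 (limma adjusted p = 0.0636), -0.90 ± 0.29 in sid2 (limma adjusted p = 0.141) and 0.41 ± 0.29 in atgsnor1-1 (limma adjusted p = 0.706) were not called.

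The response of GRX480 to avrB was itself tested between each mutant and Col-0. That of atgsnor1-3 exceeded that of Col-0 by a log2 of 3.29 ± 0.41 (limma adjusted p = 4.98e-05). Without array 1 or array 2 of untreated Col-0 the excess was 2.65 or 3.94, and with the pseudocount it was 2.11, each called. The excess was 1.43 ± 0.41 in atgsnor1-1 (limma adjusted p = 0.14) and 1.08 ± 0.41 in sid2 (limma adjusted p = 0.228), neither of them called. Both passed without array 2 of untreated Col-0, at 2.07 in atgsnor1-1 (limma adjusted p = 0.012) and 1.72 in sid2 (limma adjusted p = 0.00468), and neither passed without array 1, at 0.78 and 0.43.

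GR1 rose after avrB in the 3 mutants, from resting levels that lay close together. In atgsnor1-3 its arrays read 662 and 748 units after avrB, against 228 and 197 units untreated. In atgsnor1-1 they read 402 and 375 units after avrB, against 171 and 152 units untreated. In sid2 they read 442 and 423 units after avrB, against 237 and 168 units untreated. All treated arrays of the mutants lay above all untreated arrays of the study. In Col-0 the arrays read 373 and 356 units after avrB, against 231 and 235 units untreated, without overlap and with little spread in either group.

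GR1 rose by a log2 of 1.73 ± 0.17 in atgsnor1-3 (limma adjusted p = 3.02e-07), 1.27 ± 0.17 in atgsnor1-1 (limma adjusted p = 2.33e-05) and 1.12 ± 0.17 in sid2 (limma adjusted p = 6.09e-05), folds of 3.32, 2.41 and 2.17. In Col-0 the difference of 0.65 ± 0.17 had limma adjusted p = 0.00952 but was short of the log2 difference of 1 that a call required. Its fold was 1.56, with a 95% interval of 1.22 to 2.00. The call in sid2 was lost without array 2 of untreated sid2, at 0.87.

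The response of GR1 was larger in atgsnor1-3 than in Col-0, by 1.09 ± 0.24 (limma adjusted p = 0.00423). Without array 2 of untreated atgsnor1-3 the excess was 0.98, and without array 2 of atgsnor1-3 after avrB it was just under 1, so that both ended the call. In atgsnor1-1 the excess was 0.62 ± 0.24 (limma adjusted p = 0.276) and in sid2 0.47 ± 0.24 (limma adjusted p = 0.422). The 95% intervals ran from 0.12 to 1.12 in atgsnor1-1 and from -0.03 to 0.97 in sid2.

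Untreated leaves averaged 212 ± 22.3 units of GR1 in atgsnor1-3, 161 ± 13.5 in atgsnor1-1, 203 ± 48.5 in sid2 and 233 ± 3.18 in Col-0, the highest mean being 1.44 times the lowest. Neighbouring groups overlapped at the lower end of the order, from untreated atgsnor1-1 through untreated sid2 to untreated atgsnor1-3, and no neighbours overlapped above these, though array 1 of untreated sid2 lay above both untreated Col-0 arrays. Against untreated Col-0, the differences were -0.14 ± 0.17 in atgsnor1-3 (95% interval -0.49 to 0.22), -0.22 ± 0.17 in sid2 (-0.58 to 0.13) and -0.53 ± 0.17 in atgsnor1-1 (-0.89 to -0.18; limma adjusted p = 0.326). Untreated atgsnor1-3 stood at 0.39 ± 0.17 against untreated atgsnor1-1 and at 0.09 ± 0.17 against untreated sid2. None of these was called.

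After avrB, GR1 averaged 705 ± 61.1 units in atgsnor1-3, 433 ± 13.4 in sid2, 388 ± 19.1 in atgsnor1-1 and 365 ± 11.9 in Col-0. Both atgsnor1-3 arrays lay above all other arrays of the study. The log2 differences of atgsnor1-3 after avrB were 0.95 ± 0.17 against Col-0 (limma adjusted p = 0.000605), 0.86 ± 0.17 against atgsnor1-1 (limma adjusted p = 0.00123) and 0.70 ± 0.17 against sid2 (limma adjusted p = 0.00786), each under the size needed for a call. Without array 1 of atgsnor1-3 after avrB, the difference from Col-0 was 1.04 and was called. Against Col-0 after avrB, sid2 stood at 0.25 ± 0.17 and atgsnor1-1 at 0.09 ± 0.17.

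Counted over both genes, avrB gave 2 of 2 calls in atgsnor1-3, where 34.9% of all 13648 tested probe sets were called, 2 of 2 in atgsnor1-1 (19.1%), 2 of 2 in sid2 (22.5%) and 1 of 2 in Col-0 (12.4%). Untreated mutants differed from untreated Col-0 in 1 of 2 genes in atgsnor1-3 (8.79%), 1 of 2 in sid2 (5.92%) and 0 of 2 in atgsnor1-1 (0.147%), where limma's unadjusted p was under 0.05 for both genes. After avrB, 0 of 2 genes were called by limma against Col-0 in atgsnor1-3 (13.1%), sid2 (1.5%) and atgsnor1-1 (0.161%), with 2, 1 and 0 genes at an unadjusted p under 0.05. Differences between responses were called in 2 of 2 genes for atgsnor1-3 (15.1%) and by limma in 0 of 2 for sid2 (2.6%) and atgsnor1-1 (0.542%), with 1 and 2 genes at an unadjusted p under 0.05. Set against atgsnor1-1, atgsnor1-3 differed in 1 of 2 genes untreated (6.25%) and 1 of 2 after avrB (14.4%). Set against sid2, it differed in 1 of 2 untreated (2.25%) and by limma in 0 of 2 after avrB (8.86%), with 1 gene at an unadjusted p under 0.05. After avrB, GR1 in atgsnor1-3 had limma adjusted p under 0.05 against sid2, atgsnor1-1 and Col-0, and missed these calls by size alone. With 2 genes measured, nothing is read from these counts beyond the genes themselves.

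**Figure D2:**
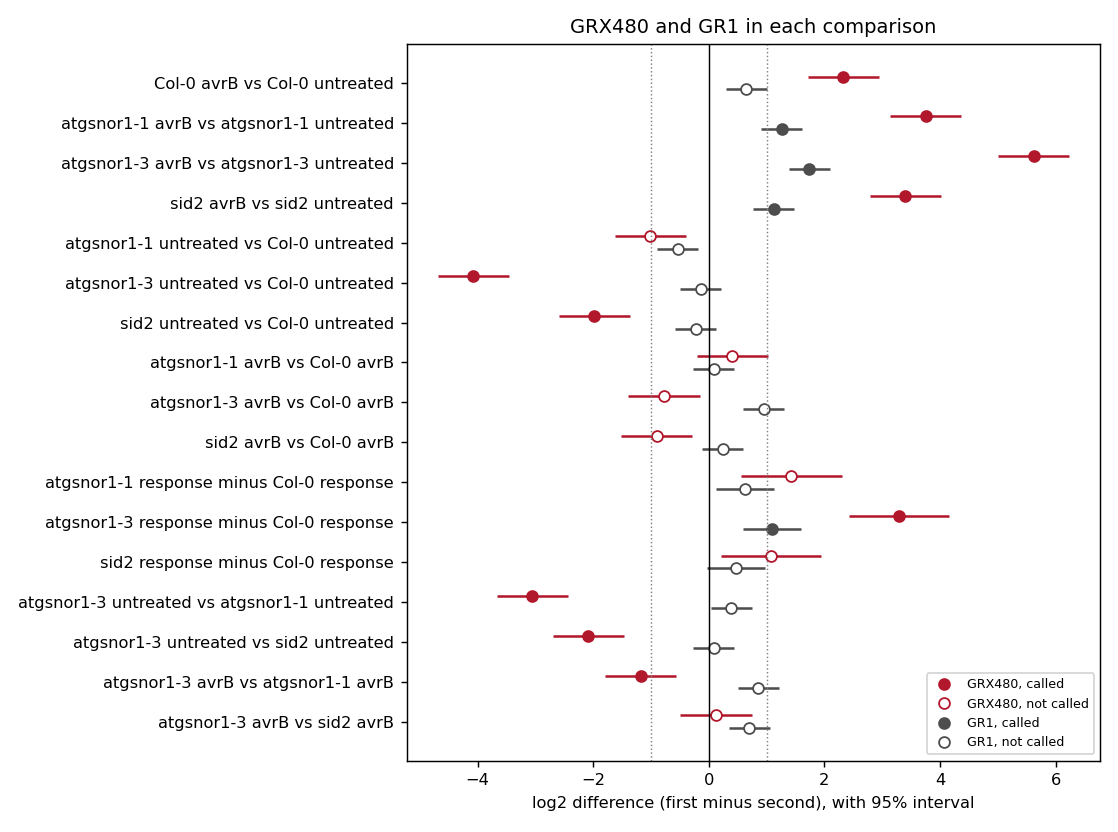
Log2 differences of GRX480 (red) and GR1 (grey) in the 17 comparisons, each the first group minus the second, with 95% intervals from limma; filled points are called, and dotted lines mark a log2 difference of 1 in either direction. For GRX480 the 4 responses to avrB lie between 2.32 and 5.62, and for GR1 between 0.65 and 1.73.

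The other genes of these systems came from lists of 105 loci, of which 26 had a probe set of their own and 21 passed the filter. Of 26 loci of the glutathione and ascorbate cycle 3 were tested, of 13 glutaredoxins 5, of 23 thioredoxins and their reductases 9, and of 10 peroxiredoxins 4. NTRB, the partner of NTRA, and the other h-type thioredoxins were not analysed here. Of 8 further NADPH oxidase loci 3 had a probe set, AT1G19230, AT4G25090 and AT4G11230, and none passed the filter. Their signals ran from 0.801 to 25.5, from 0.932 to 6.56 and from 0.613 to 15.6 units over the 16 arrays. The floral glutaredoxin genes ROXY1 and ROXY2 were also too dim, at 0.702 to 23.4 and 3.71 to 30.0 units. The lists of catalases and superoxide dismutases, of nitrate reductases and haemoglobins, and of NPR1 and TGA factors had no probe set of their own in the annotation used.

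After avrB, 1 of these 21 genes rose and 1 fell in atgsnor1-3, 1 rose and 1 fell in atgsnor1-1, and 1 fell in sid2 and in Col-0. In either direction, 2 of 21 were thus called in atgsnor1-3, where 34.9% of all tested probe sets were, 2 of 21 in atgsnor1-1 (19.1%), 1 of 21 in sid2 (22.5%) and 1 of 21 in Col-0 (12.4%). By limma's adjusted p alone, 12 of 21 were under 0.05 in atgsnor1-3, 12 in atgsnor1-1, 8 in sid2 and 8 in Col-0. The share of all tested probe sets at that looser limit was not counted. The median log2 difference of the 21 genes was -0.27 in atgsnor1-3, -0.46 in atgsnor1-1, -0.22 in sid2 and -0.40 in Col-0, where the median of all tested probe sets was -0.15, -0.08, -0.16 and -0.12. Only genes that passed the filter enter these counts and medians.

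GR (AT3G54660), known as GR2, encodes the glutathione reductase of chloroplasts and mitochondria, and its differences after avrB had the opposite sign to those of GR1. Its arrays read 389 and 336 units after avrB in atgsnor1-3, against 452 and 467 untreated. In atgsnor1-1 they read 185 and 215 units after avrB, against 390 and 396 untreated. Those of sid2 read 320 and 352 units after avrB, against 515 and 593 untreated, and those of Col-0 read 287 and 265 units after avrB, against 421 and 359 untreated. In each genotype both treated arrays lay below both untreated ones. The log2 differences were -0.34 ± 0.15 in atgsnor1-3 (limma adjusted p = 0.0643), -0.98 ± 0.15 in atgsnor1-1 (limma adjusted p = 0.000101), -0.72 ± 0.15 in sid2 (limma adjusted p = 0.00121) and -0.49 ± 0.15 in Col-0 (limma adjusted p = 0.0238), none of them called.

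Among glutaredoxins, the locus AT1G77370, to which the annotation used here gives no symbol, rose in 2 genotypes. Its arrays read 274 and 343 units after avrB in atgsnor1-3, against 63.0 and 107 untreated, and 413 and 403 units after avrB in atgsnor1-1, against 167 and 191 untreated. In sid2 they read 219 and 201 units after avrB, against 173 and 151 untreated, and in Col-0 249 and 249 units after avrB, against 277 and 245 untreated. Treated and untreated arrays thus overlapped in Col-0 and did not in the mutants.

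AT1G77370 rose by 1.90 ± 0.21 in atgsnor1-3 (limma adjusted p = 1.32e-06) and by 1.19 ± 0.21 in atgsnor1-1 (limma adjusted p = 0.000329), and it stood at 0.38 ± 0.21 in sid2 and -0.07 ± 0.21 in Col-0. Its response in atgsnor1-3 exceeded that in Col-0 by 1.97 ± 0.30 (limma adjusted p = 0.000255). The excess in atgsnor1-1 was 1.26 ± 0.30 (limma adjusted p = 0.0722), which passed with the pseudocount, at 1.21 (limma adjusted p = 0.0393), and in a fit of the 4 compared groups alone (limma adjusted p = 0.024). Like GRX480, AT1G77370 was lower in untreated atgsnor1-3 than in untreated Col-0, at -1.67 ± 0.21 (limma adjusted p = 3.23e-05), and lower than in untreated atgsnor1-1, at -1.12 ± 0.21 (limma adjusted p = 0.00198). The second call was lost without array 1 of untreated atgsnor1-3, at -0.74. Untreated means of AT1G77370 were 162 units in sid2, 179 in atgsnor1-1 and 261 in Col-0. Neither of these mutants was called against untreated Col-0. The remaining tested glutaredoxins, GRXC1, GRXC2, AT5G20500 and AT2G20270, had no call in a response. The largest difference among them was that of AT2G20270, at -0.78 in Col-0 (limma adjusted p = 0.00168) and -0.76 in atgsnor1-1 (limma adjusted p = 0.00131), and at -0.23 in atgsnor1-3.

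TRXF2 (AT5G16400), a chloroplast thioredoxin known to activate carbon-fixing enzymes in the light, fell after avrB in all 4 genotypes. Its arrays read 191 and 170 units after avrB in atgsnor1-3, against 423 and 495 untreated. They read 140 and 158 units after avrB in atgsnor1-1, against 547 and 467 untreated, and 184 and 181 units after avrB in sid2, against 422 and 403 untreated. In Col-0 they read 180 and 155 units after avrB, against 375 and 355 untreated. The treated arrays of all genotypes lay below every untreated array. The log2 differences were -1.34 ± 0.15 in atgsnor1-3 (limma adjusted p = 2.02e-06), -1.76 ± 0.15 in atgsnor1-1 (limma adjusted p = 5.03e-07), -1.18 ± 0.15 in sid2 (limma adjusted p = 1.55e-05) and -1.13 ± 0.15 in Col-0 (limma adjusted p = 6.74e-05). Leaf photosynthesis markers moved with it: their summed signal per array was 16377 to 20110 units after avrB, against 28730 to 44472 units untreated, and 5 of 6 fell in atgsnor1-3, where 34.9% of all tested probe sets were called in either direction, 2 in atgsnor1-1 (19.1%), 3 in sid2 (22.5%) and 3 in Col-0 (12.4%). The part of this in the fall of TRXF2 was not tested.

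Of the peroxiredoxins, AT3G52960, which carries no symbol in the annotation, was higher in untreated atgsnor1-3 than in untreated atgsnor1-1. Its arrays read 1351 and 1453 units in atgsnor1-3, against 708 and 641 in atgsnor1-1, a log2 difference of 1.06 ± 0.16 (limma adjusted p = 0.00026). The call was lost with quantile normalization, at 0.99, and without array 2 of untreated atgsnor1-1, at 0.98. Untreated Col-0 arrays read 752 and 691 units of AT3G52960, and those of untreated sid2 read 1057 and 982 units. The log2 difference of untreated atgsnor1-3 from untreated Col-0 was 0.96 and was not called. In the responses to avrB, limma called 0 of 4 peroxiredoxins in atgsnor1-3 (34.9% of all tested probe sets), atgsnor1-1 (19.1%), sid2 (22.5%) and Col-0 (12.4%). An unadjusted p under 0.05 was reached by 3 of 4 in atgsnor1-3, 2 in atgsnor1-1, 1 in sid2 and 3 in Col-0. By limma's adjusted p alone, 3 of 4 were under 0.05 in atgsnor1-3, 2 in atgsnor1-1, 1 in sid2 and 1 in Col-0. These missed the call by the size of the difference.

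**Figure D3:**
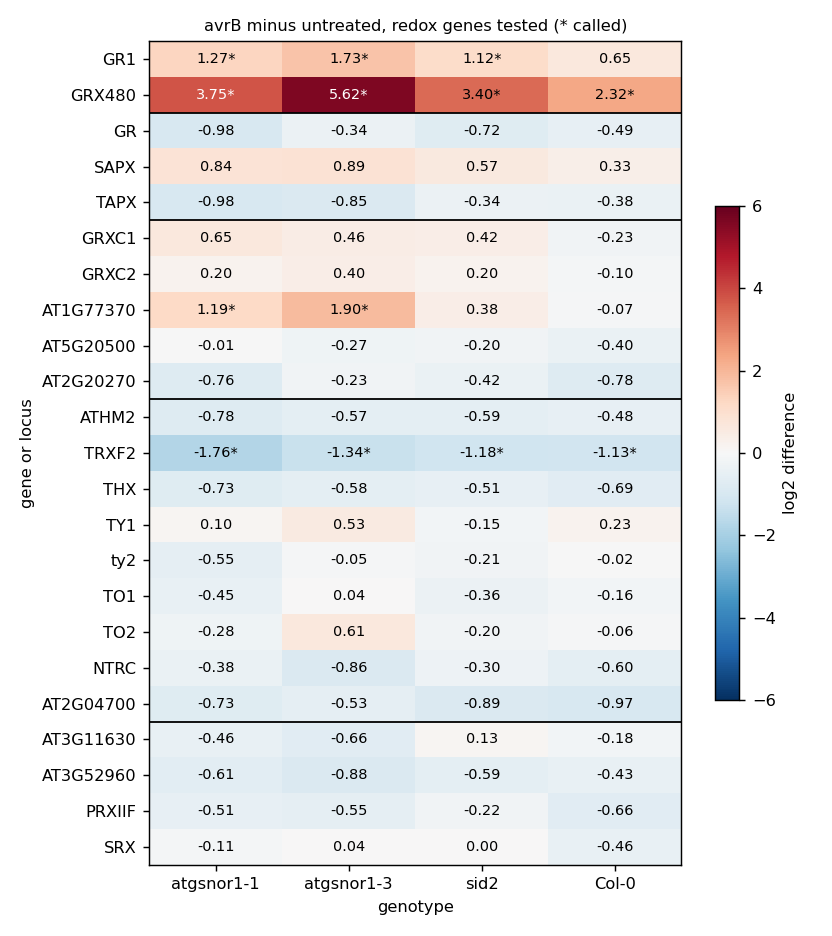
Log2 difference of avrB minus untreated in each genotype for GR1, GRX480 and the 21 other redox genes tested, grouped by list from top to bottom (glutathione and ascorbate cycle, glutaredoxins, thioredoxins and their reductases, peroxiredoxins); red is higher after avrB, blue lower, and asterisks mark calls. TRXF2 carries an asterisk in every column, between -1.76 and -1.13, and AT1G77370 in atgsnor1-1 and atgsnor1-3.

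Genes with the most similar pattern were sought by Pearson correlation of log2 group means over the 8 groups, among 7331 other probe sets of 1 locus that passed the filter. These are descriptions over 8 points that share the same arrays. The genes were picked for this likeness, so a shared lowest or highest group adds nothing to r. For GRX480 the closest were AT1G72060 (r = 0.992), AT1G67850 (r = 0.991) and AT1G16670 (r = 0.991), each with its lowest mean in untreated atgsnor1-3, as GRX480 had. Their lowest means were 19.0, 47.9 and 49.9 units. The highest mean lay in atgsnor1-1 after avrB, as for GRX480, except for AT1G67850, where it lay in Col-0 after avrB. For GR1 the closest were AT2G38800 (r = 0.991), AT3G63050 (r = 0.988) and SEC15B (AT4G02350; r = 0.987), whose highest mean lay in atgsnor1-3 after avrB, at 347, 72.2 and 208 units. GRX480 and GR1 correlated with each other at r = 0.72 over the 8 groups.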

How the data were processed

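The authors deposited a linear intensity for each probe set on each array. The submitters' processing notes name MAS5 and GCOS, with versions not given in the sources used here. Values ran from 0.0236 to 18429.6 units. For sid2 after avrB, 1 title carries both replicate numbers, and that array was taken as replicate 2. Of 22810 probe sets, 64 controls and the dimmest 40% of the rest by mean log2 signal over all arrays (under 20.2 units) were left out, which left 13648. The annotation gives 1 gene to 13513 probe sets, several to 503 and none to 8730; 13436 of the first kind matched a TAIR locus, and 7332 of those passed the filter.

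On the log2 scale, with no pseudocount, limma 3.58.1 under R 4.3.3 fitted the 8 group means together (lmFit; eBayes, trend on; 8 residual degrees of freedom). Tests were two-sided, and p-values of a comparison were adjusted by Benjamini-Hochberg over all tested probe sets. The fit was tested on simulated data. The members and lists were chosen with earlier results of these data known. Named genes are the measured loci, up to 4 called members of each list, named partners of the listed loci, and the 3 most similar probe sets; SAPX, NTRC, ROXY1 and ROXY2, the glutaredoxins without a call, and the markers were named beside these. The settings varied were the normalization (quantile), the filter (none, or the dimmest 60%), a pseudocount of 9.48 units, taken as the 25th percentile, no variance trend, the replicate number as a block, only the compared groups, and each array left out in turn, when the lone array of a group is assumed to vary like the others (7 residual degrees of freedom). Tables and figures used Python 3.11.15, pandas 2.3.3 and matplotlib 3.10.9. The number of arrays limits the precision.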

Additional observations from a re-analysis of the deposited data

Results flagged for a closer look

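In 3 genes the response to avrB in atgsnor1-3 differed from that in Col-0 by the test of the difference itself: 2 of the 2 listed genes measured and 1 of the 21 other redox genes tested, where 15.1% of all tested probe sets were called. These counts were not tested against that share. GRX480 differed by a log2 of 3.29 ± 0.41 (limma adjusted p = 4.98e-05), AT1G77370 by 1.97 ± 0.30 (limma adjusted p = 0.000255) and GR1 by 1.09 ± 0.24 (limma adjusted p = 0.00423). GRX480 and AT1G77370 were lower in untreated atgsnor1-3 than in untreated Col-0 and were not called between them after avrB. For GR1 the log2 difference was -0.14 untreated and 0.95 after avrB, neither of them called. The call of the GR1 excess was lost when array 2 of atgsnor1-3, untreated or after avrB, was left out.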

How the results depend on the processing

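For GRX480 and GR1, 387 of 398 values under the alternatives kept their direction and their side of the threshold, 4 lost a call, 4 gained one, and 3 changed sign, all of uncalled GR1 differences between untreated groups. No called value turned. Of 199 counts of the 2 genes called, 191 equalled the main count. With 1 array left out, the count was 1 to 2 for the response in sid2 and for the excess of the atgsnor1-3 response over that of Col-0. It was 0 to 1 for untreated atgsnor1-1 against untreated Col-0, for atgsnor1-3 against Col-0 after avrB, and for the excess of the atgsnor1-1 and of the sid2 response. In a fit of the compared groups alone, it was 0 for untreated atgsnor1-3 against untreated sid2; fewer arrays enter that fit. In the others, fewer arrays entered too.

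The same replicate numbers occur in every group, but the labels do not say that they mark a shared batch, and the difference between replicates 1 and 2 correlated between groups at r = -0.15 to 0.10. With the replicate block, GRX480 in untreated atgsnor1-3 against untreated Col-0 kept -4.07 (limma adjusted p = 1.4e-07), and no call of the 2 genes changed.

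Of the other redox genes, the number called moved by over 1.5 times in some comparisons. Against 0, 1 was called with the pseudocount or with only the compared groups for the excess of the atgsnor1-1 response, and 1 with quantile normalization for untreated atgsnor1-3 against untreated sid2. Quantile normalization left 1 of 2 for untreated atgsnor1-3 against untreated atgsnor1-1. With 1 array left out, counts ran up to 4 for the response in atgsnor1-1 (2 otherwise, without array 2 after avrB) and up to 3 for untreated atgsnor1-3 against untreated Col-0 (1 otherwise, without array 1 of untreated atgsnor1-3). For GRX480, signals near background limit the size of differences from untreated atgsnor1-3.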

Other observations

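SAPX and NTRC were singled out after their values were seen. SAPX (AT4G08390), which encodes a stromal ascorbate peroxidase that removes hydrogen peroxide in chloroplasts, had the group pattern nearest to GR1 among the 22 other redox genes tested, GRX480 included (r = 0.93 over 8 groups, a description). Its arrays read 507 and 483 units after avrB in atgsnor1-3, against 253 and 283 untreated, 417 and 435 units after avrB in atgsnor1-1, against 266 and 212 untreated, 360 and 315 units after avrB in sid2, against 258 and 201 untreated, and 298 and 338 units after avrB in Col-0, against 256 and 248 untreated. The response of SAPX was 0.89 ± 0.16 in atgsnor1-3 (limma adjusted p = 0.000272), 0.84 ± 0.16 in atgsnor1-1 (limma adjusted p = 0.000811), 0.57 ± 0.16 in sid2 (limma adjusted p = 0.0119) and 0.33 ± 0.16 in Col-0 (limma adjusted p = 0.157), none of them called. Its excess over the Col-0 response was 0.55 ± 0.23 in atgsnor1-3 (limma adjusted p = 0.112), 0.51 ± 0.23 in atgsnor1-1 (limma adjusted p = 0.383) and 0.24 ± 0.23 in sid2 (limma adjusted p = 0.764), also not called.

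NTRC (AT2G41680), a chloroplast protein that joins a thioredoxin reductase and a thioredoxin domain, had the pattern furthest from GRX480 (r = -0.96 over 8 groups). It averaged 535 ± 14.0 units in untreated atgsnor1-3 and 373 ± 46.6 units in untreated Col-0 (SD, n = 2 each), a log2 difference of 0.53 ± 0.16 that was not called (limma adjusted p = 0.0285). After avrB the NTRC mean lay below the untreated one in every genotype, and no response was called. It was 296 units in atgsnor1-3 and 245 in Col-0, 266 in atgsnor1-1 against 346 untreated, and 326 in sid2 against 400 untreated.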
